A study of Mus musculus with 28 samples.

Results

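The genes followed here code for the enzymes that carry glucose through glycolysis and pyruvate into the citric acid cycle. They were taken by symbol from a list of 35, all of which were among the 49341 genes of the deposited table. The first group holds 17 genes of glycolysis and lactate dehydrogenase, and the second holds 18 genes of pyruvate dehydrogenase, the citric acid cycle and pyruvate carboxylase. The samples came from 3 male Amigo2-EGFP mice on the C57BL/6J strain, aged 6 to 8 weeks and from separate litters, which all carried the same green fluorescent reporter and for which the labels name no treatment before anesthesia. From each mouse, laser capture took a cell body and a dendritic sample of the hippocampal fields CA1, CA2 and CA3 and of the dentate gyrus (DG), giving 8 groups of 3 libraries and 24 libraries in all. The title of the series concerns how the RNAs of dendrites differ between subregions and names mitochondria in CA2. All 8 libraries from 1 animal were made and run together, so mouse and batch are the same factor for the first libraries. Labels list repeats of 4 CA2 and DG dendritic libraries, and whether the table holds the first or the repeat library could not be settled from the labels. If it holds the repeats, their batch may differ from that of the other libraries of their mouse. For 2 of those repeats, titled with mice 492 and 502, the animal given in the labels is the other mouse of the pair, so their animal is uncertain. Cell body samples are of the pyramidal layer in CA1 to CA3 and of the granule cells in DG. Dendritic samples are of stratum radiatum (CA1 to CA3) or the molecular layer (DG), where glia, vessels and interneurons are also found. Each captured group of a mouse pooled about 20 caps of 5 sections from that animal. Cell body libraries were made from 5 ng of RNA and dendritic libraries from 1 ng, so input and compartment cannot be told apart.

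Glycolysis breaks glucose down to pyruvate in the cytosol and yields a little ATP, while mitochondria turn pyruvate into acetyl-CoA and burn it in the citric acid cycle, which feeds electrons to the respiratory chain. Many steps have alternative isozymes from separate genes. In brain, Aldoc and pyruvate carboxylase are textbook astrocyte enzymes and Eno2 is the neuron-specific enolase, and lactate dehydrogenase subunits A and B are commonly described as favouring lactate formation and lactate use.

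The sequences of 2 isozyme contrasts are given first, as a description on which no test rests. Aldoa and Aldoc, the aldolases whose levels went in opposite directions between layers, lie on chromosome 7 (126795234 to 126800751, minus strand) and chromosome 11 (78322968 to 78327781, plus strand) of GRCm38. The 250 bases before a RefSeq start of each gene (GRCm38.p6) are printed 5′ to 3′ on the gene's strand, at chr7:126799255-126799504 and chr11:78323948-78324197. The RefSeq start nearest that of the gene's highest transcript was taken. Both windows lie within the gene limits just given, so they are not upstream of the whole gene. Capitals mark ACGTG or GCGTG read on either strand, the core letters of the hypoxia response element.
Aldoa promoter: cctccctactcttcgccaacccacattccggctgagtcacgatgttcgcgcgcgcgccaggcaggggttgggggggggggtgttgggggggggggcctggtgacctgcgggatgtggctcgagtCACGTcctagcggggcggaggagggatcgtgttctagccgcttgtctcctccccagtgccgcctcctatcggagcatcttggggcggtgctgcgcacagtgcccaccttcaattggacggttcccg
Aldoc promoter: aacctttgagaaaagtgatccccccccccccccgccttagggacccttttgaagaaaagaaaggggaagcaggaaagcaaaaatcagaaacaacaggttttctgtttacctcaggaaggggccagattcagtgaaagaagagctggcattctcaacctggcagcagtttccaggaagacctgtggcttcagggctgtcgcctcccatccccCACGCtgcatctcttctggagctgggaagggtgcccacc
The Aldoa window held the first motif once and the Aldoc window the second motif once, both on the opposite strand. Either motif, on either strand, lay in this window of 23 of 34 members with a RefSeq entry (67.6%). Either lay in 38.6% of all 32851 promoters of the table, which also hold genes of every other kind. Those promoters were not picked by the highest transcript of a gene, so the 2 shares are of unlike sets. The GC-box core GGGCGG lay in 58.8% of member windows and 32.7% of all. A match of letters is a description and not a binding site.

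Pkm, the pyruvate kinase of the last glycolytic step, has a pair of alternative exons of 167 bases each. They give the M1 form, typical of adult muscle and brain, and the M2 form, which allosteric activators control. Both exons were read from GENCODE M21 on the plus strand of chromosome 9, at chr9:59675029-59675195 in the transcript with the M1-type exon and at chr9:59675568-59675734 in the other. Capitals mark the 64 positions at which they differ, and 61.7% of positions are identical.
M1-type exon of Pkm: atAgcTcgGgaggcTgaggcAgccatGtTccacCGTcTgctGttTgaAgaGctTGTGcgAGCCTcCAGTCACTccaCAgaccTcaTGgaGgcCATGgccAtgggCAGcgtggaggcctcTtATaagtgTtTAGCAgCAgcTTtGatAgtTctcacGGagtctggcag
M2-type exon of Pkm: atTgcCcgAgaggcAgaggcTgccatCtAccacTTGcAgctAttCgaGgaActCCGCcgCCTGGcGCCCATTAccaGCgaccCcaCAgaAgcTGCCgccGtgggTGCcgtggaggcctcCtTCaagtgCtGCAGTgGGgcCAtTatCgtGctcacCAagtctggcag

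Values are the authors' normalized log2 estimates of reads per gene, in which a difference of 1 is a doubling. They are not divided by gene length, so levels of different genes are set side by side only where a length correction is named. Differences were tested with limma on the 24911 genes that reached log2(10) in at least 3 libraries, with mouse as a block, and a gene was called at a Benjamini-Hochberg adjusted p below 0.05 over all genes tested. All 35 members passed this filter. An error after ± is the standard error of the fitted difference unless SD is written. The unlogged values summed to 29.2 to 55.5 M per cell body library and 36.9 to 98.7 M per dendritic library. RNAs of the mitochondrial genome made up 4.21% to 9.08% of these sums in cell body libraries and 29.5% to 46.9% in dendritic libraries. The CA1 dendritic libraries of mice 492 and 496 stood apart, with the highest medians over tested genes (7.56 and 7.54) and totals of 98.7 and 82.3 M. The labels of the cell body layers fitted the marker genes. The summed log2 level of 6 CA1 pyramidal markers was 16.30 to 16.48 in CA1 cell bodies and 10.7 to 12.1 in the other cell body layers. That of 7 CA2 markers was 16.11 to 16.52 in CA2 cell bodies and 11.4 to 13.6 in the other cell body layers. The 7 dentate granule markers summed to 16.2 to 16.4 in DG cell bodies and 10.4 to 13.1 elsewhere. The 6 CA3 markers did not tell CA3 from CA2 as clearly, at 15.3 to 15.4 in CA3 cell bodies and 15.2 to 15.3 in CA2. In dendritic layers, CA1 markers summed to 15.2 to 15.8 in CA1 and at most 12.85 elsewhere. CA3 markers summed to 13.5 to 13.9 in CA3 and at most 12.6 elsewhere. CA2 markers overlapped, at 13.3 to 13.6 in CA2 and 12.1 to 13.8 in CA1, and so did granule markers, at 13.9 to 14.7 in DG and 12.1 to 14.0 in CA1. Choroid plexus markers summed to 13.3 to 14.9 in CA2 dendrites and at most 12.5 in other dendritic layers.

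Most of the pathway was lower in dendritic layers than in cell body layers, and a few isozyme genes were much higher. Of the 35 members, limma called 24 lower and 6 higher in the mean of the 4 subregions, and 5 were not called. Of all tested genes, 45.2% were called, 25.4% lower and 19.8% higher. The median difference of the members was −0.66 on the log2 scale, against −0.20 over all tested genes. Scaled to library totals instead, the median over all genes was −0.63 and that over members −1.16, with 4 members higher and 29 lower, and the split over all genes went from 4941 higher and 6328 lower to 3596 and 9940. Glycolytic genes had a median of −0.64, with 11 lower and 3 higher. Genes of the citric acid cycle had a median of −0.73, with 13 lower and 3 higher. In bulk samples such as these, fewer cells of a type and less RNA per cell cannot be told apart.

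**Figure D1:**
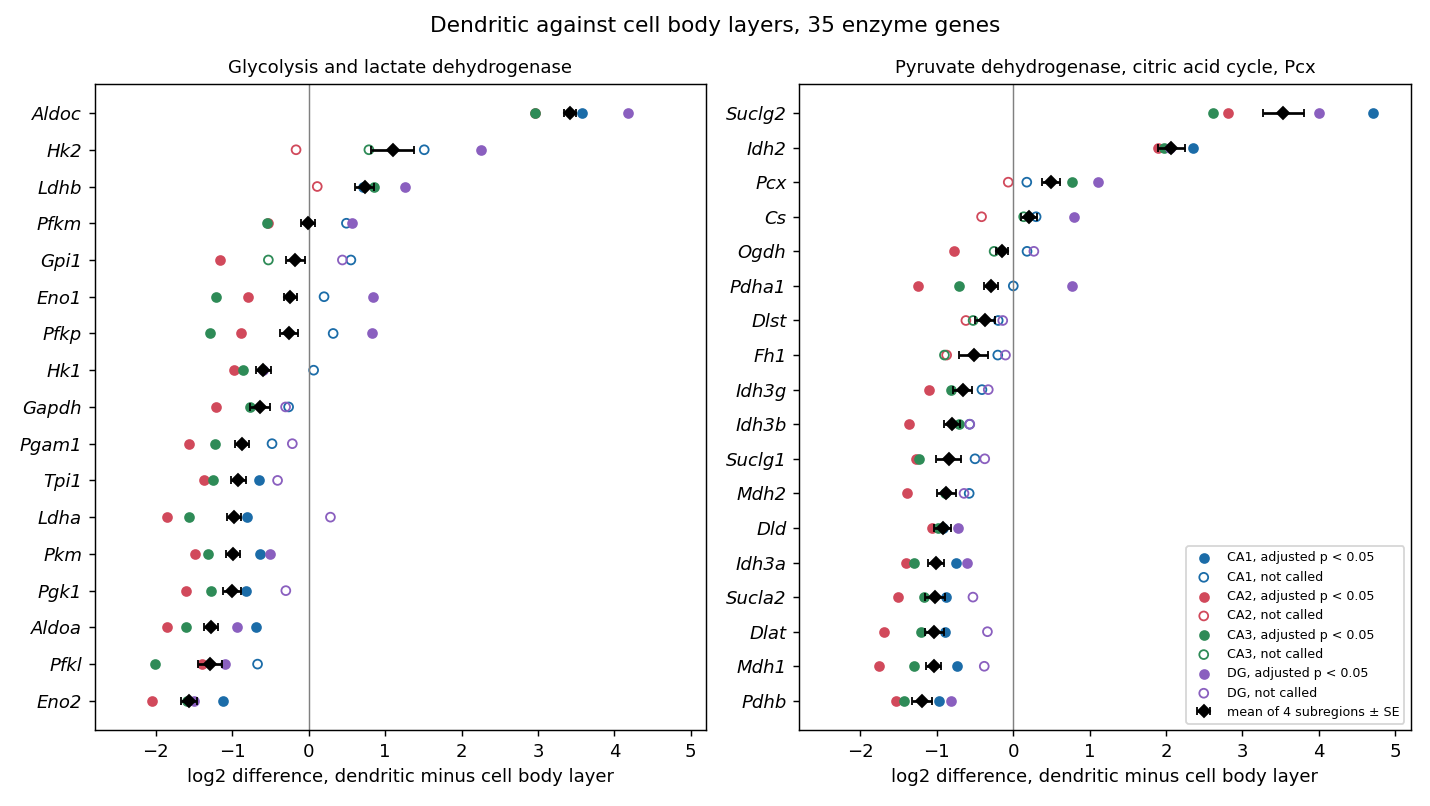
Log2 difference between dendritic and cell body layers for each enzyme gene (x axis, dendritic minus cell body, n = 3 mice per group), with colours for the 4 subregions, filled points for an adjusted p below 0.05, and black diamonds with standard errors for their mean. Aldoc, Suclg2 and Idh2 lie to the right in all 4 subregions, while most genes lie left of 0, with DG and CA1 nearer to 0 than CA2 and CA3.

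Aldoc, the brain aldolase that is typical of astrocytes, showed the largest difference among glycolytic genes. Aldoc ranged from 10.90 to 12.09 (median 11.63) over the 12 cell body libraries, and over the 12 dendritic libraries from 14.51 to 15.35 (median 15.03). No dendritic library overlapped a cell body library, and the mean difference was 3.42 ± 0.078 (adjusted p = 1.03e-20). Aldoa, the ubiquitous aldolase, went the other way. Aldoa ranged from 14.98 to 16.43 (median 15.76) over the 12 cell body libraries, and over the 12 dendritic libraries from 13.71 to 15.04 (median 14.46). Only the DG cell bodies overlapped dendritic libraries, those of CA1 in mouse 492 and CA3 in mouse 496, and the mean difference was −1.27 ± 0.092 (adjusted p = 2.12e-11).

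Eno2, the neuronal enolase, was the glycolytic gene that was lowest in dendrites relative to cell bodies. Eno2 ranged from 13.59 to 15.12 (median 14.81) over the 12 cell body libraries, and over the 12 dendritic libraries from 11.59 to 13.95 (median 13.03). DG cell bodies were the lowest of the cell body layers and lay below 3 dendritic libraries of CA1 and CA3, and the mean difference was −1.57 ± 0.10 (adjusted p = 3.65e-12). Pfkl, the liver-type subunit of phosphofructokinase, the main control point of glycolysis, also fell. Pfkl ranged from 11.53 to 13.20 (median 12.49) over the 12 cell body libraries, and over the 12 dendritic libraries from 10.28 to 12.68 (median 10.997). The layers overlapped, and the mean difference was −1.29 ± 0.15 (adjusted p = 1.2e-07).

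Other members of the glycolytic chain were lower by smaller amounts: Pgk1 (phosphoglycerate kinase), Pkm, Ldha (lactate dehydrogenase A), Tpi1 (triose phosphate isomerase), Pgam1 (phosphoglycerate mutase), Gapdh (glyceraldehyde phosphate dehydrogenase), Hk1 (the main brain hexokinase) and Eno1 (the ubiquitous enolase). Their differences ran from −1.001 for Pgk1 to −0.24 for Eno1. Hk2, the inducible hexokinase, and Ldhb, lactate dehydrogenase B, were higher in dendrites, by 1.10 ± 0.29 and 0.73 ± 0.12. Gpi1 (glucose phosphate isomerase, −0.17), Pfkm (muscle-type phosphofructokinase, −0.007) and Pfkp (platelet-type, −0.26) were not called. Gapdh and several other glycolytic genes have processed pseudogenes, and the read estimates may have been split between copies.

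In the citric acid cycle, Suclg2, the GDP-forming beta subunit of succinate-CoA ligase, had the largest difference. Suclg2 ranged from 5.04 to 8.12 (median 6.18) over the 12 cell body libraries, and over the 12 dendritic libraries from 9.07 to 10.93 (median 9.81). Dendritic libraries were all above cell body libraries, and the mean difference was 3.54 ± 0.26 (adjusted p = 3.67e-11). Idh2, the mitochondrial NADP-dependent isocitrate dehydrogenase, was the other gene with no overlap. Idh2 ranged from 7.16 to 8.70 (median 7.88) over the 12 cell body libraries, and over the 12 dendritic libraries from 9.36 to 10.73 (median 10.07). The lowest dendritic library was above the highest cell body library, and the mean difference was 2.07 ± 0.18 (adjusted p = 5.91e-10). The 3 members Aldoc, Suclg2 and Idh2 thus had all 12 dendritic values above all 12 cell body values, against 5.26% of tested genes, and no member had all of them below (1.37% of tested genes).

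Subunits of pyruvate dehydrogenase and the other dehydrogenases of the cycle were lower. Pdhb ranged from 11.50 to 12.71 (median 12.08) over the 12 cell body libraries, and over the 12 dendritic libraries from 10.26 to 11.54 (median 10.80). Pdhb codes for the beta subunit of pyruvate dehydrogenase E1, and the mean difference was −1.19 ± 0.13 (adjusted p = 4.19e-08). Mdh1, the cytosolic malate dehydrogenase of the malate-aspartate shuttle, was lower as well. Mdh1 ranged from 13.01 to 15.04 (median 14.23) over the 12 cell body libraries, and over the 12 dendritic libraries from 12.24 to 13.50 (median 13.16). In both genes the only cell body libraries that overlapped dendritic ones were those of DG, and for Mdh1 the mean difference was −1.04 ± 0.10 (adjusted p = 5.06e-09). The remaining lower members were Dlat (pyruvate dehydrogenase E2), Dld (the E3 subunit that several dehydrogenases share), Pdha1 (E1 alpha), the 3 subunits Idh3a, Idh3b and Idh3g of NAD-dependent isocitrate dehydrogenase, Dlst (E2 of oxoglutarate dehydrogenase), Sucla2 (the ADP-forming beta subunit of succinate-CoA ligase), Suclg1 (its shared alpha subunit), Fh1 (fumarase) and Mdh2 (mitochondrial malate dehydrogenase), from −1.03 for Dlat to −0.29 for Pdha1. Pcx, pyruvate carboxylase, which refills the cycle, was higher by 0.50 ± 0.12 (adjusted p = 0.00105). Cs, citrate synthase (0.21), and Ogdh, oxoglutarate dehydrogenase E1 (−0.14), were not called.

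Markers of cells other than principal neurons moved with the compartment. All 12 astrocyte markers measured were called higher in dendritic layers (median difference 3.41), and their summed log2 level was 15.6 to 17.3 in cell body libraries and 18.95 to 20.00 in dendritic libraries, with none at 0 throughout a group. All 10 oligodendrocyte markers (median 2.97), all 9 microglia markers (3.65), all 8 endothelial markers (3.51) and 8 of 9 interneuron markers (1.62) were called higher too, and 3 of 6 choroid plexus markers were higher and 1 lower. Their part in the enzyme differences was not tested. The block by mouse and its absence gave the same 6 higher and 24 lower members. Of the 30 calls, 24 held their direction and threshold in all 11 alternatives, and the others (Hk2, Eno1, Pdha1, Pcx, Dlst and Fh1) were lost in at least 1.

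The share of the whole pathway in nuclear-encoded RNA was lower in dendritic than in cell body libraries of each subregion, a description with no test. Summed over the 35 genes, unlogged values were 0.800% to 1.38% of the total outside the mitochondrial genome in cell body libraries and 0.648% to 0.8998% in dendritic libraries. By subregion, CA1 cell bodies held 1.00% to 1.04%, those of CA2 1.28% to 1.36%, those of CA3 1.30% to 1.38% and those of DG 0.800% to 0.833%. CA1 dendrites held 0.648% to 0.767%, those of CA2 0.843% to 0.8998%, those of CA3 0.807% to 0.885% and those of DG 0.689% to 0.785%. Each subregion's dendritic libraries were below its own cell body libraries, and the gap was smallest in DG.

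**Figure D2:**
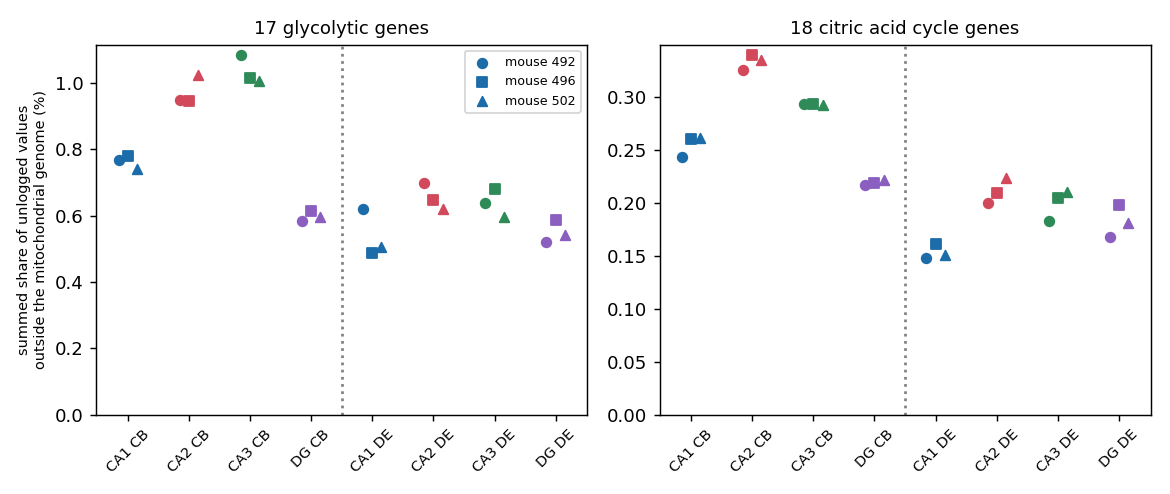
Summed unlogged values of the 17 glycolytic genes (left) and the 18 citric acid cycle genes (right) as a percentage of all values outside the mitochondrial genome (y axis), 1 point per library, with CB for cell body and DE for dendritic layers. Cell bodies of CA2 and CA3 are highest and those of DG lowest, and CA1 dendritic libraries are the lowest of all for the citric acid cycle genes (0.148% to 0.161%).

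Within each subregion, members were called in both directions between dendrites and cell bodies. In CA2, 26 members were called lower and 3 higher (17.2% and 10.8% of tested genes, 28% in all). In CA3 there were 24 lower and 5 higher members (11.4% and 10.6% of tested genes, 22.1% in all). CA1 had 12 lower and 4 higher members (9.56% and 15.2%, 24.8% in all). DG was the only subregion with more members called higher than lower in these 4 tests, 11 against 8, where 13% and 9.31% of tested genes were called (22.3% in all). The CA1 and DG counts moved with the scaling of the libraries, and the difference between subregions in these counts was not tested. With totals outside the mitochondrial genome as the scale, CA1 had 22 members lower and 3 higher, CA2 had 23 and 4, CA3 had 23 and 5, and DG had 17 and 10. That scale also turned the split over all genes, which for CA1 went from 3784 higher and 2382 lower to 3063 and 4524, and for DG from 3227 and 2318 to 3090 and 3765. For CA2 it went the other way, from 2682 and 4297 to 4008 and 2496, as for CA3, from 2644 and 2849 to 3217 and 2473. Under library totals CA1 had 30 lower members, CA2 and CA3 had 28 each, and DG had 21. The split over all genes moved towards lower as well, to 2135 higher and 7624 lower for CA1. For DG it was then 2281 and 6178, for CA2 2554 and 5088, and for CA3 2317 and 4579. Without mouse 502, 2 members were lower in CA1, as were 1264 of 23270 tested genes. Lower members in DG numbered 2 without mouse 492, where 1537 of 23392 tested genes were lower, and 2 without mouse 502 (957 of 23270). Without the 4 CA2 and DG dendritic libraries for which a repeat library is listed, 1 member was lower in DG (855 of 24021). Higher members in DG numbered 6 without mouse 496 (2139 of 23830 tested genes). CA3 had 3 higher members without mouse 496 (1888 of 23830).

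The 3 members higher in CA2 were Aldoc, Suclg2 and Idh2, which were called higher in all 4 subregions. CA1 and CA3 added Ldhb, and CA3 also Pcx. In DG the higher members further included Ldhb, Hk2, Eno1, Pcx, Pdha1, Cs, Pfkp and Pfkm. Of these, Eno1, Pdha1, Pfkp and Pfkm were called lower in CA2 and CA3, while Cs and Hk2 were called in no other subregion. Eno2, Aldoa, Pdhb, Dld, Idh3a and Pkm were called lower in each of the 4.

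Each isozyme family was then compared within libraries, since a scale factor common to a library cancels in a log2 difference between its own genes. The dendritic minus cell body change of each difference was taken in the 12 pairs of libraries from the same mouse and subregion, and tested with a two-sided exact sign-flip permutation test over the pairs. The 12 pairs come from 3 mice, so they are not independent animals. The smallest p over pairs is 0.000488, whereas 3 mice alone could not go below 0.25. The differences are of values not corrected for length, so their change and not their sign is compared. In all, 9 isozyme pairs were tested and their p-values were adjusted over the 9.

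Aldolase shifted most, towards Aldoc. Aldoc minus Aldoa was −3.78 (CA1), −4.28 (CA2), −4.48 (CA3) and −4.02 (DG) in cell bodies and 0.49 (CA1), 0.53 (CA2), 0.10 (CA3) and 1.10 (DG) in dendrites. It was higher in dendrites in 12 of 12 pairs, by 4.70 on the log2 scale (SD 0.25 over 3 mice; exact permutation, adjusted p = 0.000732). With transcript lengths taken into account, Aldoc held a median 4.40% of aldolase RNA in cell bodies (2.78% to 6.26%) and 53.3% in dendrites (44.2% to 66.8%). Among the 35 genes ranked by their length-corrected log2 level, Aldoc moved from rank 27 in cell bodies to rank 2 in dendrites, and Gapdh ranked first in both.

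**Figure D3:**
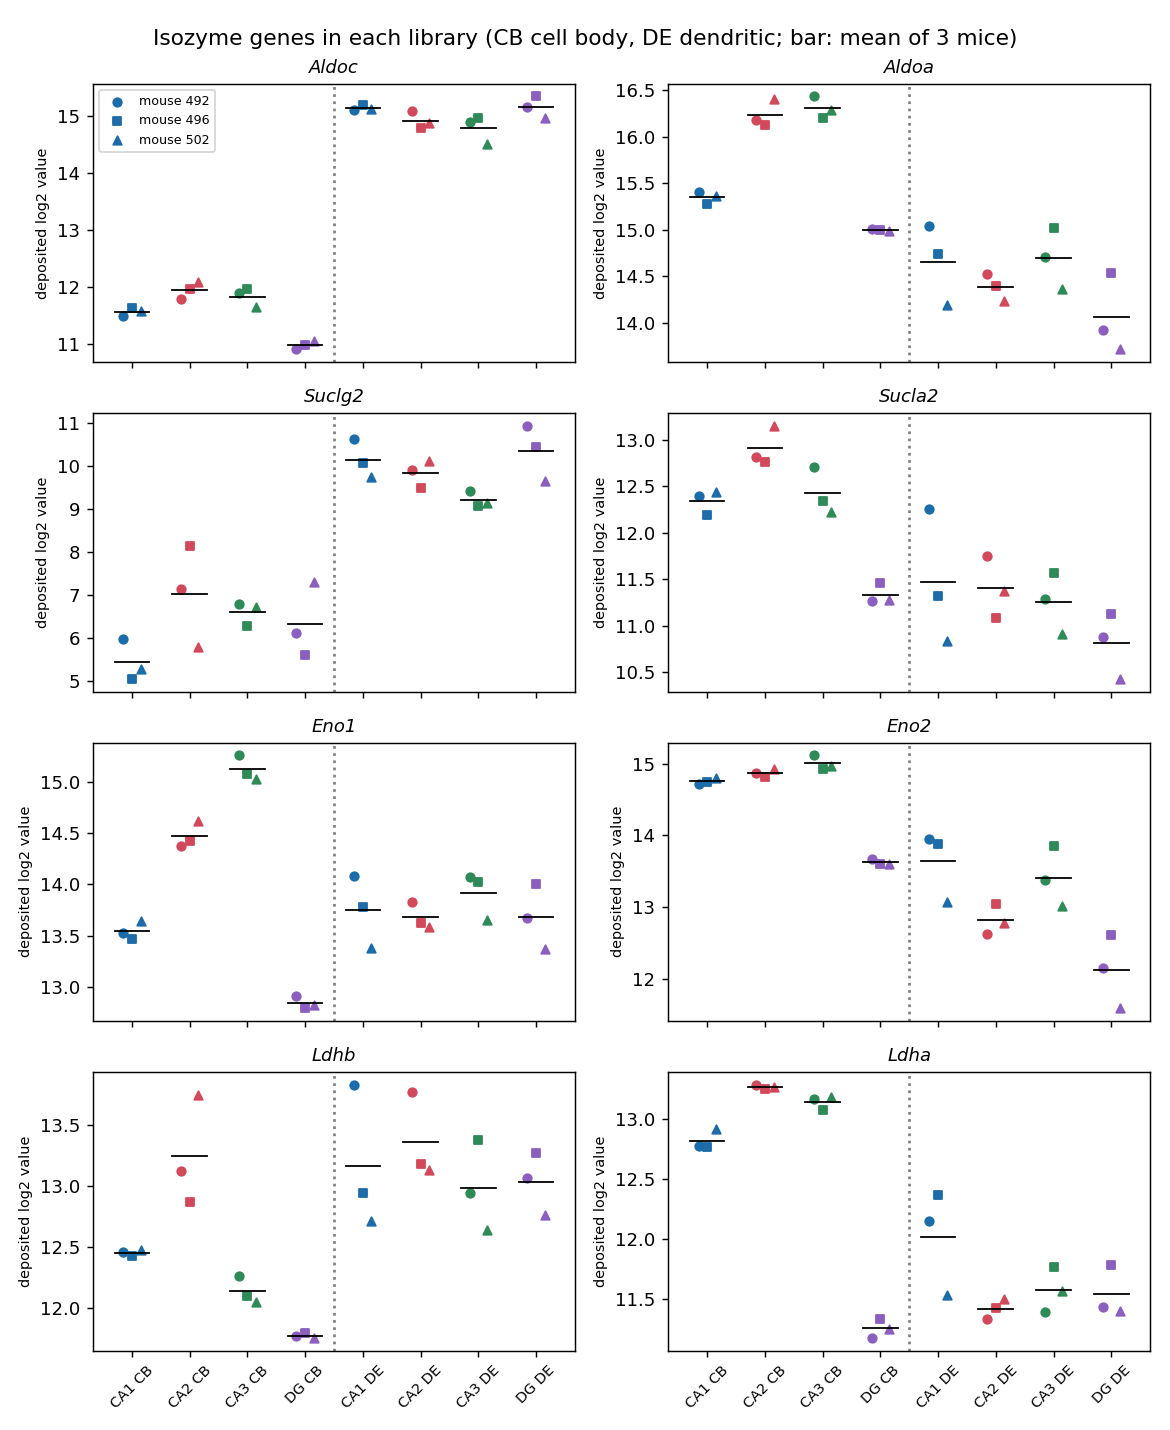
Deposited log2 values (y axis, not corrected for gene length) of 4 isozyme pairs in each of 24 libraries, by layer and subregion, with a symbol for each mouse and a bar for the mean of 3. The left genes Aldoc and Suclg2 lie higher in every dendritic library, while Aldoa, Sucla2 and Eno2 on the right are lower in the dendritic libraries of each subregion on average.

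Enolase and lactate dehydrogenase moved in the same manner but less far. Eno1 minus Eno2 was −1.21 (CA1), −0.40 (CA2), 0.12 (CA3) and −0.78 (DG) in cell bodies and 0.11 (CA1), 0.86 (CA2), 0.51 (CA3) and 1.56 (DG) in dendrites, a rise of 1.33 (SD 0.21 over 3 mice; 12 of 12 pairs; exact permutation, adjusted p = 0.000732). The rise was smallest in CA3, at 0.38, and largest in DG, at 2.35. Ldhb minus Ldha was −0.37 (CA1), −0.02 (CA2), −1.01 (CA3) and 0.51 (DG) in cell bodies and 1.14 (CA1), 1.94 (CA2), 1.41 (CA3) and 1.495 (DG) in dendrites, a rise of 1.72 (SD 0.29; 12 of 12 pairs; exact permutation, adjusted p = 0.000732). Per length, Eno1 held a median 46.2% of the enolase RNA of cell bodies and 66.1% of that of dendrites, and Ldhb held 49.3% and 78.1% of the lactate dehydrogenase RNA.

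**Figure D4:**
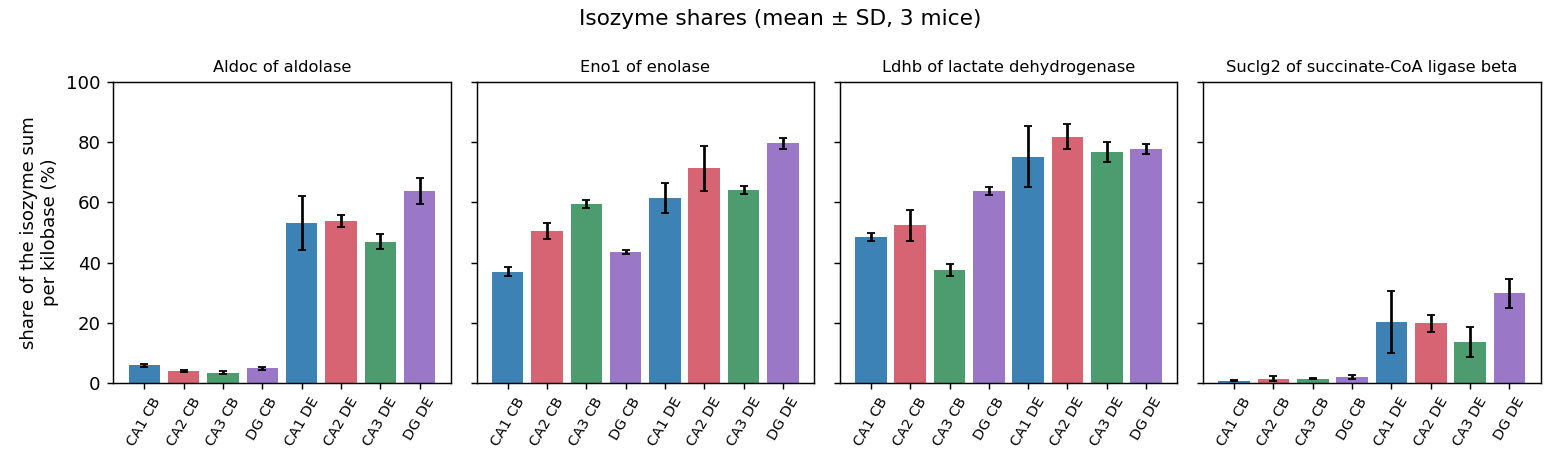
Share of 1 isozyme in its family per kilobase of transcript (y axis, %, mean ± SD of 3 mice) in each layer and subregion. Aldoc rises from 3.29% to 5.80% in cell bodies to 46.9% to 63.8% in dendrites (group means), and Ldhb and Suclg2 are higher in the dendritic bar of every subregion.

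Hexokinase shifted towards Hk2 by 1.69 (SD 0.67 over 3 mice; 11 of 12 pairs; exact permutation, adjusted p = 0.00188), although Hk2 stayed a small part, with medians of 0.763% and 2.96% per length. The exception was CA2 of mouse 492, whose dendritic Hk2 value was 5.64. In phosphofructokinase, Pfkl fell against Pfkm by 1.29 (SD 0.20; lower in 12 of 12 pairs; exact permutation, adjusted p = 0.000732), and its share went from 31.5% to 16.2%. The change of Pfkp minus Pfkm was −0.25 and not called (SD 0.24; lower in 8 of 12 pairs; exact permutation, adjusted p = 0.154).

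The citric acid cycle held 2 large shifts. Suclg2 minus Sucla2 was −6.92 (CA1), −5.90 (CA2), −5.84 (CA3) and −5.01 (DG) in cell bodies and −1.33 (CA1), −1.57 (CA2), −2.05 (CA3) and −0.48 (DG) in dendrites, so the GDP-forming subunit gained 4.56 on the ADP-forming one (SD 0.19 over 3 mice; 12 of 12 pairs; exact permutation, adjusted p = 0.000732). Its share per length went from a median 1.29% to 21.4%. Idh2 gained 3.08 on Idh3a (SD 0.072; 12 of 12 pairs; exact permutation, adjusted p = 0.000732). Cytosolic against mitochondrial malate dehydrogenase, Mdh1 minus Mdh2, had a change of −0.17, which was not called (SD 0.21; lower in 8 of 12 pairs; exact permutation, adjusted p = 0.232). The astrocyte, oligodendrocyte, microglia and endothelial marker lists rose in the same libraries, by the values given above, and their part in these shifts was not tested.

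Transcript values were available for 62 transcripts of the 35 genes. Of the 17 members with at least 2 tested transcripts, limma's diffSplice called 1 for unequal change between compartments, where 19.7% of 10025 genes were called. This was Idh2 (adjusted p = 0.00572). Its main transcript ENSMUST00000107384 rose by 2.28 ± 0.23, and ENSMUST00000139178, at log2 values of 0.40 to 6.29 in cell bodies and 0.35 to 5.11 in dendrites, had a difference of −0.71 ± 0.74. With 10 added to the unlogged values before taking logs, 6 members were called. The count was 2 without mouse 492, 0 without mouse 496, 2 without the 2 CA1 dendritic libraries that stood apart, and 2 under quantile normalization.

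Both Pkm transcripts were lower in dendrites. The transcript with the M2-type exon ranged from 13.42 to 15.21 in cell bodies and from 12.79 to 13.80 in dendrites, a difference of −1.08 ± 0.11. The transcript with the M1-type exon ranged from 11.88 to 13.95 and from 9.04 to 12.36, a difference of −1.81 ± 0.28. Their unequal change was not called (adjusted p = 0.231). These annotated transcripts also differ in their first exons (77 bases with the M1-type exon, 282 with the M2-type) and last exons (462 and 648 bases), so the estimates do not rest on the printed exons alone.

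Cell body layers differed among subregions in nearly the whole pathway. An F-test over CA1, CA2, CA3 and DG called 29 of 35 members, against 19.6% of tested genes, with 16 of 17 glycolytic and 13 of 18 citric acid cycle genes. The 6 not called were Hk2, Pdhb, Idh2, Dlst, Suclg2 and Fh1. Of the 29, 20 were called in all 11 alternatives.

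The 4 smallest adjusted p-values belonged to Eno1, Ldha, Pdha1 and Pgam1. Eno1 cell body values in mice 492, 496 and 502 were 13.53, 13.47 and 13.64 for CA1, 14.38, 14.42 and 14.62 for CA2, 15.27, 15.08 and 15.03 for CA3, and 12.91, 12.79 and 12.82 for DG. CA3 was highest and DG lowest, with no overlap between any of the 4 layers (F-test, adjusted p = 4.68e-10). Ldha cell body values in mice 492, 496 and 502 were 12.77, 12.77 and 12.92 for CA1, 13.28, 13.25 and 13.27 for CA2, 13.16, 13.08 and 13.18 for CA3, and 11.18, 11.34 and 11.25 for DG. DG lay below the other layers by more than 1 log2 unit, and CA1 lay between (adjusted p = 1.29e-08). Pdha1 cell body values in mice 492, 496 and 502 were 12.59, 12.57 and 12.82 for CA1, 13.48, 13.47 and 13.62 for CA2, 13.11, 12.93 and 13.05 for CA3, and 11.30, 11.37 and 11.43 for DG. CA2 was highest and DG lowest (adjusted p = 1.51e-08). Pgam1 cell body values in mice 492, 496 and 502 were 13.61, 13.58 and 13.78 for CA1, 14.36, 14.50 and 14.80 for CA2, 14.57, 14.31 and 14.24 for CA3, and 12.66, 12.74 and 12.67 for DG. DG was again lowest and CA1 next, while CA2 and CA3 overlapped (adjusted p = 6.61e-08).

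Granule cell bodies of DG had the lowest pathway levels. Against the mean of the other 3 cell body layers, limma called 31 members lower and none higher (13.7% and 3.49% of tested genes, 17.2% in all), with a median of −1.11 against −0.08 over all tested genes. Ldha (−1.82), Pfkp (−1.74), Pdha1 (−1.70), Eno1 (−1.54) and Pgam1 (−1.503) differed most. The DG cell body libraries also had the lowest totals of unlogged values, 29.2 to 29.7 M against 37.4 to 55.5 M in the other cell body libraries, and its part in the result was not tested. Scaling to totals outside the mitochondrial genome moved the median of all genes to 0.46 and that of the members to −0.52, and 19 members were then called lower and 0 higher. The split over all genes went from 870 higher and 3421 lower to 2607 and 1382. In all 11 alternatives 18 stayed lower, among them Hk1, Gapdh, Eno1, Eno2, Pkm, Ldha, Pdha1 and Mdh1.

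CA2 and CA3 cell bodies were at the high end. In CA2, 23 members were called higher and 0 lower (7.34% and 1.63% of tested genes, 8.97% in all), led by Gpi1 (1.21 ± 0.20), Pdha1 (1.17 ± 0.15), Ldhb (1.13 ± 0.20) and Mdh1 (1.08 ± 0.17). In CA3 there were 16 higher and 0 lower (4.91% and 2.12%, 7.04% in all), led by Eno1 (1.51 ± 0.14) and Pfkp (1.22 ± 0.20), and 12 of the 16 were glycolytic. CA1 had 0 higher and 4 lower members (2.8% and 3.18%, 5.98% in all), Eno1, Pfkm, Dlat and Aldoa. These comparisons share the cell body libraries, so their counts are not independent. Under quantile, outside-mitochondria and total scaling the median over members in CA2 went from 0.70 to 0.32, 0.32 and 0.29. All called genes in CA2 then split into 1005 higher and 848 lower, 930 and 1172, and 822 and 1235, in place of 1828 and 407. In CA3 they split into 1019 and 813, 883 and 1126, and 786 and 1048, in place of 1224 and 529. The CA2 count of members was 11 to 14 under the 3 other scalings and 12 without mouse 492 or 13 without mouse 502. The CA3 count was 2 without mouse 492 and included Ldhb as lower under each of the 3 other scalings. The CA1 count was 0 or 1 when a mouse was left out. All called genes numbered 1361 in CA2 without mouse 492, 1032 in CA2 without mouse 502 and 925 in CA3 without mouse 492. In CA1 they numbered 829 to 937 when a mouse was left out. Gpi1, Pgam1, Pkm, Ldha, Ldhb, Pdha1, Dlat and Mdh1 in CA2, and Pfkp and Eno1 in CA3, were called in all 11 alternatives.

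**Figure D5:**
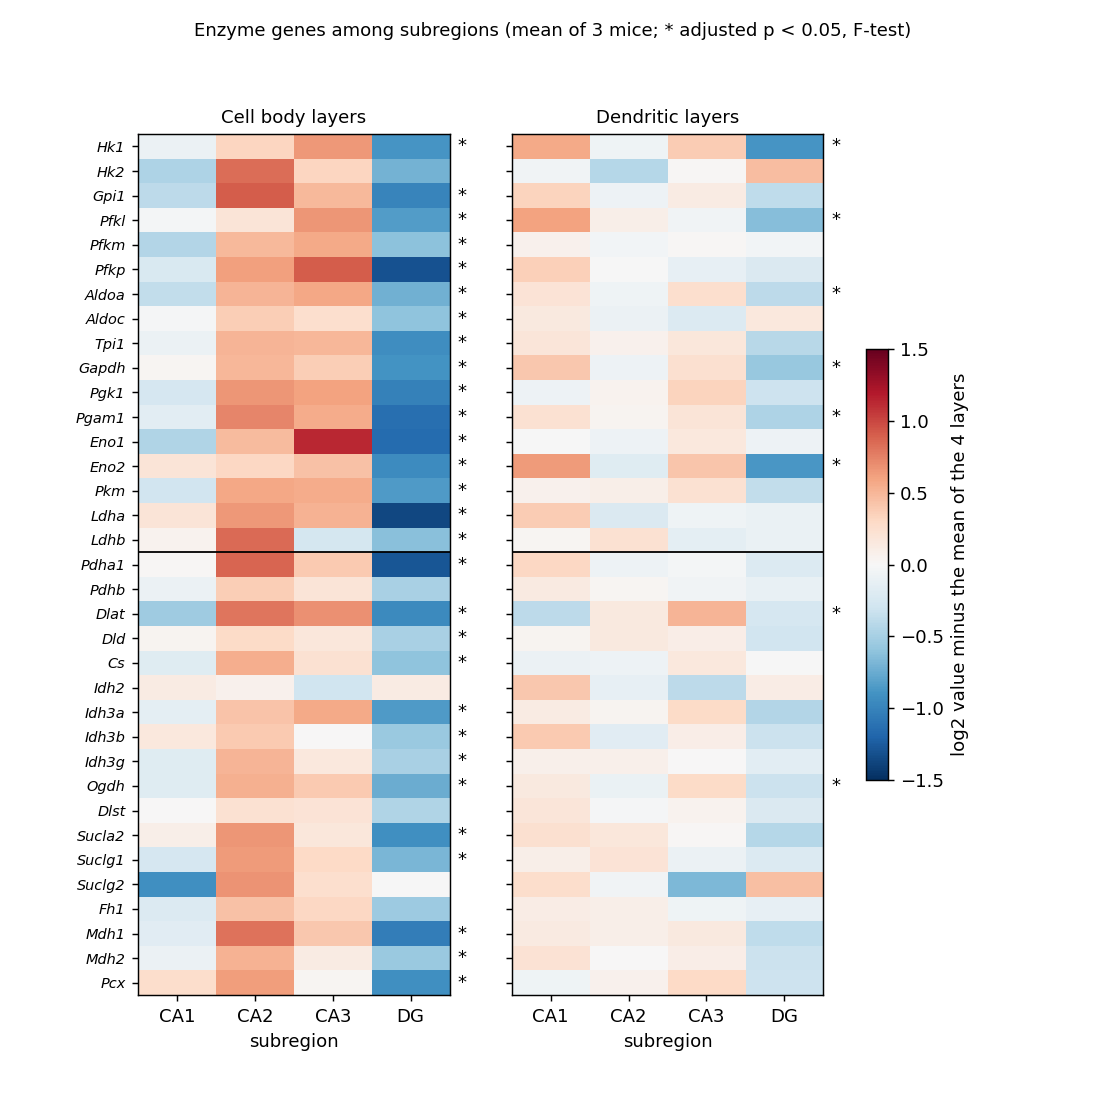
Mean log2 value of each enzyme gene in each subregion minus the mean of the 4 subregions (colour scale, red higher and blue lower, n = 3 mice), for cell body layers (left) and dendritic layers (right). Asterisks mark an adjusted p below 0.05 in the F-test among subregions, 29 genes in cell bodies and 8 in dendrites, and the DG cell body column is blue for nearly all genes.

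Among dendritic layers, the F-test called 8 of 35 members, against 14.5% of tested genes: Eno2, Hk1, Pgam1, Pfkl, Dlat, Ogdh, Gapdh and Aldoa. Eno2 dendritic values in mice 492, 496 and 502 were 13.95, 13.88 and 13.07 for CA1, 12.63, 13.05 and 12.78 for CA2, 13.37, 13.84 and 13.02 for CA3, and 12.15, 12.62 and 11.59 for DG. DG lay below the other layers, with its highest value below the lowest of CA2 (adjusted p = 3.62e-05). Hk1 dendritic values in mice 492, 496 and 502 were 14.12, 13.55 and 13.41 for CA1, 13.34, 12.85 and 13.01 for CA2, 13.83, 13.68 and 13.01 for CA3, and 12.27, 12.52 and 11.95 for DG. DG was lowest again without overlap (adjusted p = 6.2e-05). Pgam1 dendritic values in mice 492, 496 and 502 were 13.21, 13.59 and 12.74 for CA1, 12.89, 13.24 and 12.81 for CA2, 13.08, 13.36 and 12.99 for CA3, and 12.37, 12.82 and 12.24 for DG. The layers overlapped, and the DG mean was lowest (adjusted p = 0.0291). Pfkl dendritic values in mice 492, 496 and 502 were 11.90, 12.68 and 10.73 for CA1, 11.94, 10.75 and 11.10 for CA2, 11.43, 11.28 and 10.63 for CA3, and 10.42, 10.89 and 10.28 for DG. CA1 had the highest mean and the widest spread, with 1 low library (adjusted p = 0.0367). Without the mouse block, 4 members were called. The count was 1 without the 4 libraries that have a repeat, 4 without the 2 CA1 dendritic libraries that stood apart, 2 without mouse 492, 4 without mouse 496, 2 without the filter on low values, and 15 and 19 under quantile and outside-mitochondria scaling. No member was called in all 11 alternatives.

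In DG dendrites, 10 members were called lower than the mean of the other 3 dendritic layers and 0 higher (5.6% and 1.36% of tested genes, 6.96% in all): Hk1 (−1.18 ± 0.17), Eno2 (−1.17 ± 0.17), Pfkl, Gapdh, Pgam1, Idh3a, Tpi1, Aldoa, Pkm and Ogdh. Only Hk1 and Eno2 were still called lower under each of the 3 other scalings, and Aldoc was then called higher. All called genes split into 724 higher and 954 lower under quantile, 801 and 826 under outside-mitochondria and 947 and 579 under total scaling, in place of 338 and 1395. Without the mouse block 4 members were called, without mouse 492 there were 2, and without mouse 502 there were 3. Without the 2 CA1 dendritic libraries that stood apart there were 2, and without the 4 libraries that have a repeat there was none. In the same order, all called genes numbered 1568, 663, 1002, 1421 and 219, in place of 1733.

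In CA1 dendrites the direction depended on the scaling. On the deposited scale 5 members, Eno2 (0.85), Pfkl (0.80), Hk1 (0.75), Idh3b (0.52) and Ldha (0.51), were called higher and 0 lower (10.8% and 2.46% of tested genes, 13.2% in all). With totals outside the mitochondrial genome as the scale, 0 were called higher and 13 lower, and quantile normalization gave 0 and 10. That scale moved the median over all genes from 0.15 to −0.34, and the median over members from 0.19 to −0.36, and all called genes split into 559 higher and 1653 lower in place of 2685 and 612. The counts also moved with the libraries included. Without the 2 CA1 dendritic libraries that stood apart 0 members were called, and without mouse 492 there were 0. Without mouse 496 there were 2, and without the mouse block there were 3. In the same order, all called genes numbered 421, 1470, 1528 and 3043, in place of 3297.

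CA2 and CA3 dendrites were not set apart by these genes on the deposited scale. Limma called 0 members in CA2 (2.57% of tested genes, 0.446% higher and 2.12% lower) and 0 in CA3 (2.16%, 1.28% higher and 0.871% lower). At an unadjusted p below 0.05 the counts were 0 in CA2 and 11 in CA3, of which 9 were higher. The median of the members in CA2 dendrites was −0.01, with differences from −0.56 to 0.30. Under quantile normalization and under the outside-mitochondria scale, Ldhb and Pkm were called higher in CA2, as were 263 and 339 of all tested genes. Between 4 and 6 members were called in CA3 under the 3 other scalings, with Dlat, Eno2 and Hk1 higher in each. All called genes in CA3 then numbered 1023 under quantile, 949 under outside-mitochondria and 895 under total scaling, in place of 537. Without the 2 CA1 dendritic libraries that stood apart, 1 member and 928 of all tested genes were called in CA3. No tool other than limma was run on these values.

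The size of the compartment difference itself differed among subregions for 16 of 35 members (interaction F-test; 11.7% of tested genes). Eno1, Ldha and Pdha1 had the smallest adjusted p-values. Eno1 dendritic values in mice 492, 496 and 502 were 14.08, 13.78 and 13.38 for CA1, 13.83, 13.62 and 13.59 for CA2, 14.07, 14.02 and 13.65 for CA3, and 13.67, 14.00 and 13.37 for DG. Its dendritic minus cell body difference was 0.20 for CA1, −0.79 for CA2, −1.21 for CA3 and 0.84 for DG (interaction, adjusted p = 3.46e-06). Ldha dendritic values in mice 492, 496 and 502 were 12.15, 12.37 and 11.54 for CA1, 11.34, 11.43 and 11.50 for CA2, 11.39, 11.77 and 11.57 for CA3, and 11.43, 11.79 and 11.41 for DG. For Ldha the differences were −0.80, −1.85, −1.56 and 0.28 in the same order (adjusted p = 1.2e-05). Pdha1 dendritic values in mice 492, 496 and 502 were 13.06, 12.75 and 12.18 for CA1, 12.32, 12.25 and 12.27 for CA2, 12.41, 12.42 and 12.14 for CA3, and 12.16, 12.34 and 11.92 for DG. For Pdha1 they were 0.002, −1.24, −0.71 and 0.78 (adjusted p = 3.77e-05). For Eno1 and Pdha1 the rise in DG was called, and DG was also the layer with the lowest cell body values of all 3 genes. The number of members called was 8 under each of the 3 other scalings, 4 without mouse 492, 7 without mouse 496 and 10 without mouse 502, and Eno1, Ldha, Pdha1 and Pfkp were called in all 11 alternatives.

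In CA2, the field that the series title names, the dendritic minus cell body difference was lower than the mean of the other 3 subregions for 10 members and higher for 0 (6.43% and 0.735% of tested genes, 7.17% in all). The 10 were Gpi1, Pdha1, Ldha, Mdh1, Pgam1, Ogdh, Cs, Aldoa, Eno1 and Aldoc, from −1.31 for Gpi1 to −0.61 for Aldoc. For Aldoc, which was higher in CA2 dendrites than cell bodies, this was a smaller rise. The median over members was −0.74, against −0.21 over all tested genes. Under each of the 3 other scalings 2 members were called. The median over members was then −0.10 under quantile, −0.09 under outside-mitochondria and −0.21 under total scaling, and that over all genes 0.04, 0.37 and 0.28. All called genes split into 300 higher and 361 lower, 585 and 327, and 348 and 359 in the same order, in place of 183 and 1603. The count of members was 1 without mouse 492, 1 without mouse 496 and 6 without the 4 libraries that have a repeat. In the same order, all called genes numbered 582, 502 and 833, in place of 1786. Pdha1 was called in all 11 alternatives.

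Genes around the pathway, from lists chosen for their function, split in the same comparison of dendritic with cell body layers, in which 19.8% of all tested genes were called higher and 25.4% lower. Among glycogen genes, 6 of 7 were called higher and 1 lower, in the dendritic libraries in which all 12 astrocyte markers were higher too, and the part of those cells was not tested. Ppp1r3c, a glycogen-targeting subunit of protein phosphatase that promotes glycogen synthesis, stood at 7.13 to 8.52 in cell bodies and 11.27 to 12.55 in dendrites (4.04 ± 0.17, adjusted p = 7.03e-16). The 12 dendritic libraries lay above all cell body libraries. Gyg, the glycogenin that primes the polymer, was lower (−0.79 ± 0.18, adjusted p = 0.000702). Malate-aspartate and glycerol phosphate shuttle genes had 5 of 7 lower and 0 higher, with the largest fall in Got1, the cytosolic aspartate aminotransferase (−1.39 ± 0.14, adjusted p = 1.23e-08).

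The counts of the next lists stand beside the same shares over all tested genes, 45.2% called, 19.8% higher and 25.4% lower, and nothing particular to a list is read from them. Of 9 glucose and lactate transport genes, 4 were higher and 3 lower. Slc2a4, the insulin-responsive glucose transporter, had the largest rise (3.17 ± 0.88, adjusted p = 0.00453) but was listed at 0 in some libraries of both layers, and Emb, an ancillary subunit of lactate transporters, had the largest fall (−2.33 ± 0.60, adjusted p = 0.00311) and was listed at 0 in 1 CA1 dendritic library. Partners and regulators of pyruvate dehydrogenase had 3 of 10 higher, led by the inhibitory kinase Pdk4 (3.09 ± 0.53, adjusted p = 3.24e-05). Pdk4 overlapped between layers, at 4.99 to 8.15 in cell bodies and 3.08 to 10.03 in dendrites. In the same list 4 were lower, led by the mitochondrial pyruvate carrier Mpc2 (−1.06 ± 0.18, adjusted p = 2e-05). Of 16 tested genes among 18 other glycolytic isozymes and regulators, 5 were higher and 6 lower, and the largest rise was that of Hk3, a low-abundance hexokinase (2.70 ± 0.80, adjusted p = 0.0078). Hk3 was listed at 0 in some libraries of both layers. Other citric acid cycle genes (9 tested of 10) had 3 higher, led by the cytosolic Idh1 (1.08 ± 0.16, adjusted p = 6.31e-06), and 2 lower, led by the succinate dehydrogenase subunit Sdhb (−0.71 ± 0.11, adjusted p = 1.16e-05). In the pentose phosphate pathway 2 of 7 were higher, led by its entry enzyme G6pdx (0.93 ± 0.15, adjusted p = 9.22e-06), and 3 lower, led by Rpia, ribose phosphate isomerase (−1.501 ± 0.61, adjusted p = 0.0475). These adjusted p-values are from limma over all tested genes.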

How the data were processed

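RNA was measured by sequencing in 24 libraries, 8 groups of 3 mice. The submitters' processing notes name the mm10 build, Salmon 0.9.1, STAR 2.5.1b, DESeq2 1.18.1, limma 3.32.2 in R 3.4.2, featureCounts 1.5.1, cutadapt and FastQC, with no role for each. The gene and transcript tables were deposited as log2 values of Salmon estimates, normalized by the authors, per the file headers. Being estimates and not counts, they got no counting interval, and depth is known only from the unlogged sums. The log2 tables have no column for 4 repeat libraries, and a microarray table of 12 columns was not used.

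With statmod 1.5.0 and R 4.3.3, limma 3.58.1 was run on all 24 libraries with 8 groups and mouse as a block (14 residual degrees of freedom, trended and robust spread), for 14 comparisons and 3 F-tests, after keeping genes at or above log2(10) in at least 3 libraries. P-values were two-sided and Benjamini-Hochberg adjusted over all genes tested, with a call at 0.05. The number in a library's title was taken as its animal, as the labels give it for the 24 libraries, but for 2 of the 4 repeats title and animal disagree, so the pairing of those libraries would be uncertain if the tables hold the repeats. With these numbers, deviations from group means correlated at 0.0166 on average within mice and −0.00818 between mice. Taking deviations within groups of 3 ties the second value to the first, so it is no separate check of the pairing. Transcripts were tested with diffSplice. Lengths came from GENCODE M21 for 62 of 62 transcripts, 8 of them by another version of the transcript. Promoters came from RefSeq (GRCm38.p6), which held 34 of 35 members, and the start nearest that of a member's highest transcript was used. Scripts were tested on simulated data. A first bar, for recovering small differences, was missed for lack of power with 3 libraries per group. The bar was afterwards kept for larger differences only. A member that was not called may still differ by a small amount.

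The members and lists were chosen with earlier results of these data known. Genes outside the 35 were named as the largest called difference each way in each pathway list, and 1 result that this rule selects is not reported here. Members given in full were the called ones with the largest absolute mean compartment difference in each of glycolysis and the citric acid cycle. Those with the smallest adjusted p in each F-test were given in full too. Alternatives were quantile normalization, scaling to totals and to totals outside the mitochondrial genome, a pseudocount of 10, no filter, no block, each mouse left out, the 4 libraries with a repeat left out, and 2 CA1 dendritic libraries left out. Single genes of the subregion comparisons were followed through the alternatives only where they were called on the deposited scale, a restriction made after the data were seen.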

Additional observations from a re-analysis of the deposited data

Results flagged for a closer look

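The dendritic minus cell body difference varied among CA1, CA2, CA3 and DG for 16 genes by limma's interaction F-test. In glycolysis and lactate dehydrogenase the adjusted p was 3.46e-06 for Eno1, 1.2e-05 for Ldha, 0.000216 for Pfkp, 0.000652 for Aldoc, 0.00178 for Pgam1, 0.00202 for Gpi1, 0.00308 for Pfkm, 0.00701 for Aldoa, 0.0166 for Pkm, 0.0341 for Pgk1 and 0.0363 for Tpi1. In the citric acid cycle group it was 3.77e-05 for Pdha1, 0.00634 for Mdh1, 0.00691 for Ogdh, 0.0365 for Cs and 0.0479 for Dlat.

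The same difference in CA2 was set against the mean of CA1, CA3 and DG, and 10 genes were called. On the log2 scale CA2 was lower than that mean by −1.31 for Gpi1, −1.27 for Pdha1, −1.15 for Ldha, −0.96 for Mdh1, −0.93 for Pgam1, −0.84 for Ogdh, −0.83 for Cs, −0.77 for Aldoa, −0.74 for Eno1 and −0.61 for Aldoc. Only Pdha1 was called in all 11 alternatives.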

How the results depend on the processing

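Of 4305 single-gene values under the alternatives, 3541 kept their side of the threshold, 598 lost the call and 137 gained it. A further 29 changed sign and were called on the deposited scale or under the alternative. Sign changes with neither call are counted among the 3541, and F-test values have no direction. Of 734 counts, 506 stayed within 1.5 times. All 72 alternatives of the isozyme pairs kept their side of the threshold, and those of called pairs kept direction. The causes of the changes below were not tested. In the 14 comparisons the number of all tested genes called also changed with these settings, and it is not given beside each count here. Quantile, outside-mitochondria and total scaling gave, in that order, 19, 22 and 30 members lower in CA1 dendrites than cell bodies and 13, 17 and 21 in DG, where 5 were higher under totals. They gave 13, 14 and 11 calls for CA2 and 20, 19 and 19 for DG cell bodies, 10, 13 and 13 for CA1, 4, 5 and 6 for CA3 and 4, 3 and 4 for DG dendrites, 2, 2 and 2 for the CA2 compartment effect and 8, 8 and 8 for the interaction. Quantile and outside-mitochondria scaling gave 2 and 2 for CA2 dendrites and 15 and 19 in the dendritic F-test, and quantile scaling gave 2 for transcripts, where a pseudocount of 10 gave 6. With no filter the counts were 4 lower in DG, 2 in CA1 cell bodies, 3 in CA1 and 3 in DG dendrites, and 2 in the dendritic F-test. With no replicate block they were 3 in CA1 dendrites, 4 in DG dendrites and 4 in the dendritic F-test, and the block moved no other count by over 1.5 times. Without the 4 libraries with a repeat they were 1 lower in DG, 0 in DG dendrites, 6 for the CA2 compartment effect, 24 in CA2 and 16 in CA3 cell bodies and 1 in the dendritic F-test. Without the 2 CA1 dendritic libraries (mice 492 and 496) they were 0 in CA1, 1 in CA3 and 2 in DG dendrites, 4 in the dendritic F-test and 2 for transcripts. Leaving out each mouse gave 2 to 13 lower in CA1, 3 to 4 higher in CA3, 6 to 10 higher and 2 to 9 lower in DG, 0 to 1 in CA1, 12 to 17 in CA2 and 2 to 13 in CA3 cell bodies, 0 to 6 in CA1 and 2 to 9 in DG dendrites, 1 to 7 for the CA2 compartment effect, 2 to 6 in the dendritic F-test, 4 to 10 for the interaction and 0 to 2 for transcripts. Of these 29 sign changes, those in the mean compartment difference were Eno1 at 0.026 under quantile scaling, and Cs at −0.30 and Pcx at −0.00462 under totals. In CA1 they were Hk1 at −0.35 and Pdha1 at −0.41 outside mitochondria, and under totals Hk1 at −0.92, Gpi1 −0.43, Pfkm −0.49, Pfkp −0.66, Eno1 −0.78, Ldhb −0.27, Pdha1 −0.98, Cs −0.68, Ogdh −0.80 and Pcx −0.80. In CA2 quantile scaling gave Pfkm 0.067, Eno1 0.00662 and Ogdh 0.00986, and in DG totals gave Pfkm −0.084 and Ogdh −0.38. Dlst in DG cell bodies was 0.00638 under totals. In CA1 dendrites Pfkl was −0.081 without the CA1 libraries of mice 492 and 496, Ldha −0.046 and −0.081 outside mitochondria and under totals, and Idh3b −0.00302, −0.027 and −0.062 under quantile, outside-mitochondria and total scaling. The CA2 compartment effect of Aldoc was 0.00557 under quantile and 0.030 under outside-mitochondria scaling.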
